A study of Mus musculus with 4 samples.

Results

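The collagen genes of the mouse were followed in mammary epithelial cells taken from FVB/NJ mice 4 weeks after birth, before the ducts have finished growing out. The members are all genes with a symbol made of Col, a type number, the letter a and a chain number that had at least 1 probe set carrying that symbol alone in the platform annotation, which gave 44 of 22180 genes. They were measured by 47 probe sets, and of several for 1 gene the brightest, averaged over all arrays, was used. A further probe set carried Col6a1 together with other symbols and was left out. By structure the members divide into 11 fibrillar collagens, the 6 type IV chains of the basement membrane, and 27 others.

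There were 2 samples from mice carrying MMTV-Cre and 2 from wild-type littermates, with 1 array per sample, all on a congenic FVB/NJ background. In MMTV-Cre a promoter taken from the mouse mammary tumour virus, active in mammary epithelium and also in some other tissues, drives the Cre recombinase. The labels give no floxed allele for either group, and describe replicates as biological without saying how many mice each held. Cells of the inguinal gland were separated from stroma by collagenase digestion and centrifugation. The values are log2 signals made by the authors with RMA, a method that gives the arrays nearly the same distribution and so hides any change common to most genes. Signals of different probe sets depend on their probes, and they do not rank transcripts by abundance.

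Collagens are secreted proteins whose chains wind round each other in helices of repeated glycine-led triplets. Fibrillar collagens, above all types I, III and V, build the cables of connective tissue and in the mammary gland are made mainly by stromal fibroblasts. Type IV chains form the sheet-like network of the basement membrane on which luminal and myoepithelial cells rest. The remaining types anchor that membrane, coat fibrils, form beaded filaments around cells or sit in the cell membrane. In the growing gland, collagen round the ducts is known for its part in branching and in the stiffness of the tissue.

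Windows upstream of the annotated start were available from RefSeq (GRCm38.p6) for 35 of the 44 members, in 38 windows. Those of 4 genes are shown, and no window was available for Col1a1 or Col5a2. Col1a2 and Col3a1 are fibrillar genes with high signals, and Col6a2 and Col27a1 had the smallest p-values among the collagens. Each run gives the 250 bases before the start on the strand of the gene, and where several starts are annotated, before the one farthest upstream. Capitals mark exact matches, on either strand, to 3 short motifs that do not overlap in these windows. The motif of the TATA element was searched as TATAAA. That of the nuclear factor Y element was searched as CCAAT, and that of the Sp1 element as GGGCGG.
Col1a2, chr6:4505368-4505617, plus strand: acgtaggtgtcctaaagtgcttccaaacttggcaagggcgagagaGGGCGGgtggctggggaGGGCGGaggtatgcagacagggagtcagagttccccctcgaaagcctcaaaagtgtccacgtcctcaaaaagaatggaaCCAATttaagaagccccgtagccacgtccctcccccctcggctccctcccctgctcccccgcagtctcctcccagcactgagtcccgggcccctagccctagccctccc
Col3a1, chr1:45311288-45311537, plus strand: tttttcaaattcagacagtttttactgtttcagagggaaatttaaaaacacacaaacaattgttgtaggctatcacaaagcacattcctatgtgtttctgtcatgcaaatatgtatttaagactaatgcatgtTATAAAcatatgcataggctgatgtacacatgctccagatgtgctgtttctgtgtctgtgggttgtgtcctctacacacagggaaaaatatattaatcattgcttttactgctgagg
Col6a2, chr10:76623631-76623880, minus strand: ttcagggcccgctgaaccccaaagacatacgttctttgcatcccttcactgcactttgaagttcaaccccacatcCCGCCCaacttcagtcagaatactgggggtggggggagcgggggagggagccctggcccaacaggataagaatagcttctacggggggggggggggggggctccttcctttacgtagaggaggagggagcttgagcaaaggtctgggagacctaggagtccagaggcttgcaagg
Col27a1, chr4:63215162-63215411, plus strand: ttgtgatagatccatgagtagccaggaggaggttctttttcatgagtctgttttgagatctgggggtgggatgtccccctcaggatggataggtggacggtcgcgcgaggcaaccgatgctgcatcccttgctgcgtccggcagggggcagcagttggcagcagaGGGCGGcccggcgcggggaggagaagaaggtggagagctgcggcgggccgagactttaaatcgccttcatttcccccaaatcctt
The Col1a2 window holds 1 CCAAT match, which begins 109 bases before the start, and 2 GGGCGG matches, which begin 205 and 188 bases before it. The Col3a1 window holds a TATAAA match 117 bases before the start and neither of the other motifs. The Col6a2 and Col27a1 windows each hold 1 GGGCGG match and no match to the others. Of the 38 collagen windows, 34.2% hold CCAAT, 13.2% TATAAA and 57.9% GGGCGG, against 33.8%, 12.4% and 32.7% of all 32851 windows. These matches describe letters and were not tested as sites of binding.

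Before the members are described, the samples were set against their label. The luminal keratin gene Krt8 lay between 10.30 and 10.40 and the epithelial adhesion gene Epcam between 8.52 and 8.67 over the 4 arrays, so epithelial transcripts were strong in all of them. Markers of other cell types gave signals too. Of 13 measured fibroblast markers 11 lay above 2.84, the median of the mean signals of all probe sets, which is used here as the limit for dim genes, and Clec3b and Tcf21 lay below it. All 8 endothelial and all 7 pericyte markers lay above the limit. So did 11668 of all 22180 genes, and a signal above the limit does not by itself show that a transcript was present. Mean signals ran from 3.33 for Tie1 to 7.93 for Cdh5 among endothelial markers. Among pericyte markers they ran from 2.93 for Kcnj8 to 8.21 for Rgs5. Wild-type replicate 1 stood apart in lymphocyte transcripts, with a mean signal of 5.87 over 6 tested markers, against 3.06 and 3.06 in the MMTV-Cre arrays and 2.98 in wild-type replicate 2. For the collagens, the count of differences above 0, the group medians and some single differences are also given without wild-type replicate 1.

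Collagen genes as a family showed no change that passed the test, and their main feature was a high level in 1 array, MMTV-Cre replicate 2. Of the 44 members 30 had a mean signal at or above the limit of 2.84 and were tested with limma among 11668 genes. None passed an adjusted p of 0.05, and none of all genes tested did (0% called). Unadjusted p was under 0.05 in 3 members, Col6a2, Col27a1 and Col5a2, all higher in MMTV-Cre, where 4.32% of all genes had such a p, 2.13% higher and 2.19% lower. Differences were above 0 in 24 members and below 0 in 6, with a median of 0.09 log2 units, where 49.0% of all genes lay above 0 and their median was −0.0039. Both MMTV-Cre arrays exceeded both wild-type arrays in 10 of the 30, where 16.7% of all genes did so. In none of the 30 did both lie below, where 16.5% of all genes did. With the dim, untested members included, both lay below in 4 of the 44. Col27a1 and Col23a1 reached the limit through their MMTV-Cre values alone and so had to be higher there. Over the other 28 members, 22 differences were above 0, 2 had an unadjusted p under 0.05 and 8 were higher in both MMTV-Cre arrays. With 2 arrays against 2, an exact two-sided permutation test cannot give a p below 0.333, and the median half-width of a 95% interval over all genes tested was 0.34 log2 units.

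**Figure D1:**
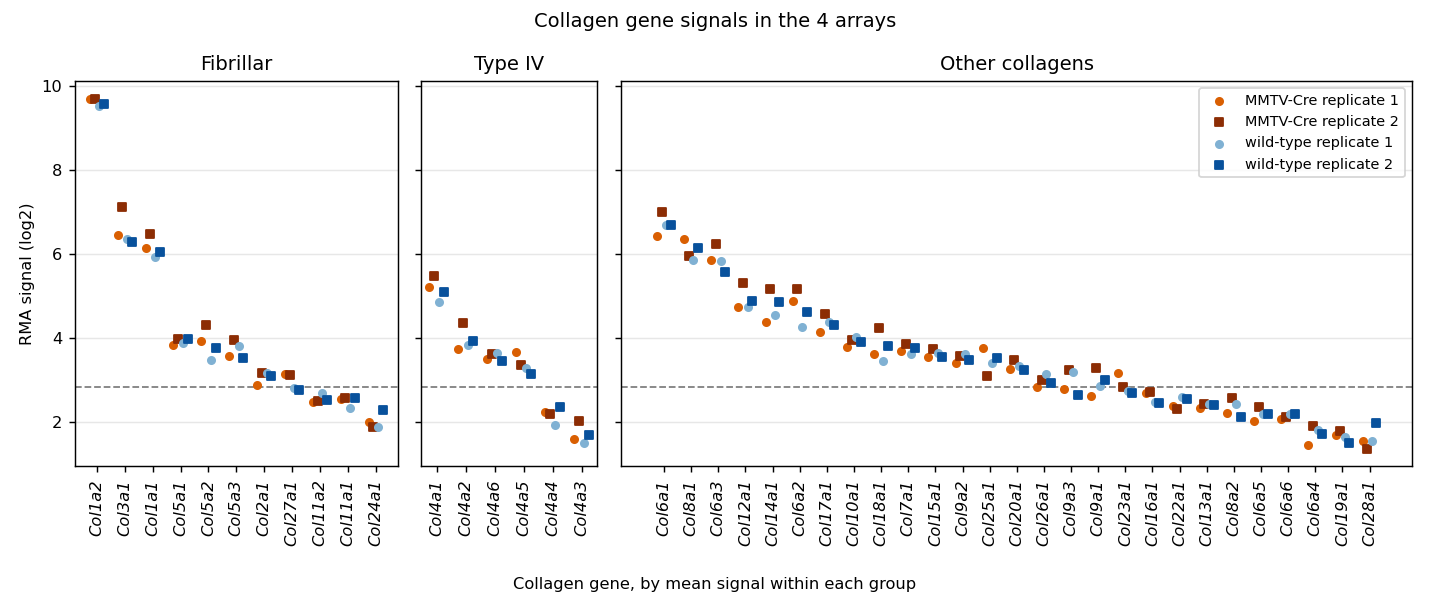
Log2 RMA signal of the 44 collagen genes (vertical axis) in each of the 4 arrays, by group and ordered by mean signal, with MMTV-Cre arrays in orange and brown and wild-type arrays in blue. The dashed line is the limit for dim genes at 2.84, and the 14 genes whose mean signal lies below it, between 1.60 and 2.58, were described but not tested.

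MMTV-Cre replicate 2 had the highest signal of the 4 arrays in 20 of the 30 tested members, where it was the highest in 27.6% of all genes tested. MMTV-Cre replicate 1 was the highest in 5, wild-type replicate 1 in 4 and wild-type replicate 2 in 1. The shares of all genes tested were 23.7%, 20.5% and 28.3%. Replicate 2 exceeded replicate 1 within MMTV-Cre in 25 of the 30, by a median of 0.28 log2 units, where 54.4% of all genes did and their median was 0.02. Within wild-type, replicate 2 exceeded replicate 1 in 14 of the 30, with a median of −0.03, where 58.0% of all genes did and their median was 0.04. Set against both wild-type arrays, MMTV-Cre replicate 2 lay above them in 23 members and MMTV-Cre replicate 1 in 12, where the shares of all genes were 35.8% and 32.1%. In 5 of the 30 the difference between the groups was larger than the gap between replicates in both groups, where 21.6% of all genes met that condition. Those 5 were Col1a2, Col5a2, Col27a1, Col4a1 and Col6a2, or 4 without Col27a1. Leaving out MMTV-Cre replicate 2 left 12 of the 30 collagens above 0 in place of 24, with medians of 0.14 for fibrillar, 0.10 for type IV and −0.05 for other collagens. Without wild-type replicate 1, the array with lymphocyte transcripts, 22 of the 30 were above 0, with medians of 0.24, 0.19 and 0.04.

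Fibrillar collagens had 8 tested members, 6 with differences above 0, and 5 of them were higher in both MMTV-Cre arrays. The shares of all genes were 49.0% and 16.7%. The median difference was 0.23 log2 units over the 8, and 0.09 over all 11 with the dim genes included. The 8, and the 5 that were separate, include Col27a1, which reached the limit through its MMTV-Cre values alone. The chains of type I collagen, the main fibril of connective tissue, are encoded by Col1a1 and Col1a2. Col1a1 stood at 6.15 and 6.47 in the MMTV-Cre arrays, against 5.92 and 6.06 in the wild-type arrays. The groups did not overlap, but the MMTV-Cre arrays lay as far apart as the groups did, and the difference of 0.32 had a 95% interval of −0.07 to 0.71. It was 0.16 without MMTV-Cre replicate 2 and 0.48 without MMTV-Cre replicate 1. Col1a2 stood at 9.70 and 9.71 in MMTV-Cre, against 9.54 and 9.58 in wild-type. Its replicates were close, and the difference of 0.14 (−0.13 to 0.42) corresponds to 1.10-fold. A second Col1a2 probe set, at a mean of 5.48, differed by 0.10.

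Col3a1, which encodes the chain of type III collagen found beside type I in soft tissue, stood at 6.47 and 7.12 in MMTV-Cre, against 6.35 and 6.29 in wild-type. MMTV-Cre replicate 2 was far above the rest and replicate 1 was near the wild-type arrays, so the difference of 0.47 had an interval of −0.12 to 1.06. Without MMTV-Cre replicate 2 it was 0.14, and without MMTV-Cre replicate 1 it was 0.80. Col5a2, a chain of type V collagen, which is built into type I fibrils and limits their width, stood at 3.92 and 4.31 in MMTV-Cre, against 3.47 and 3.76 in wild-type. The groups were separate and the difference was 0.50 (0.02 to 0.97), 1.41-fold, with a limma unadjusted p of 0.0435 and an adjusted p of 0.964. Without MMTV-Cre replicate 2 the difference was 0.30, without wild-type replicate 1 it was 0.35, and without MMTV-Cre replicate 1 it was 0.69. The differences of the other type V chains were nearer 0. Col5a1 differed by −0.03 (−0.33 to 0.27), with both groups between 3.83 and 3.98, and Col5a3 differed by 0.09 (−0.38 to 0.56). A second, dimmer Col5a1 probe set differed by −0.22 with an interval of −1.46 to 1.01.

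Col27a1, a fibrillar collagen known best from cartilage, had the closest replicates of the 3 members with an unadjusted p under 0.05. It stood at 3.14 and 3.11 in MMTV-Cre, against 2.80 and 2.76 in wild-type, a difference of 0.34 (0.07 to 0.62) and 1.27-fold, with a limma unadjusted p of 0.0230 and an adjusted p of 0.964. The wild-type values lay below the limit of 2.84, so the gene was tested only through its MMTV-Cre values, and RMA signals of dim genes are compressed, which leaves the size of the difference uncertain. Its difference ran from 0.32 to 0.36 when each array was left out in turn. Col2a1, the main cartilage collagen, differed by −0.10 (−0.46 to 0.25). The dim fibrillar members were Col11a2, Col11a1 and Col24a1, with mean signals between 2.01 and 2.54.

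Among the type IV chains, Col4a1 and Col4a2 encode the pair that makes the general network of basement membranes. Col4a1 stood at 5.22 and 5.49 in MMTV-Cre, against 4.86 and 5.09 in wild-type. The groups were separate, and the difference of 0.38 (−0.02 to 0.77), 1.30-fold, exceeded the replicate gaps of 0.27 in MMTV-Cre and 0.23 in wild-type. Its limma unadjusted p was 0.0573 and its adjusted p 0.964. The difference was 0.24 without MMTV-Cre replicate 2, 0.26 without wild-type replicate 1 and 0.51 without MMTV-Cre replicate 1. Col4a2 stood at 3.73 and 4.35 in MMTV-Cre, against 3.84 and 3.94 in wild-type. There the MMTV-Cre arrays lay on both sides of the wild-type arrays, with a difference of 0.15 (−0.42 to 0.72).

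Col4a5 and Col4a6 encode chains of a second type IV network that is made in some epithelia and round smooth muscle. Col4a5 stood at 3.67 and 3.35 in MMTV-Cre, against 3.28 and 3.14 in wild-type. It was higher in both MMTV-Cre arrays, with a difference of 0.29 (−0.09 to 0.68), and was 1 of the 5 members highest in MMTV-Cre replicate 1. Without that array the difference was 0.14, and without MMTV-Cre replicate 2 it was 0.45. Col4a6 stood at 3.51 and 3.63 in MMTV-Cre, against 3.64 and 3.45 in wild-type, and the groups overlapped with a difference of 0.02 (−0.30 to 0.35). Col4a3 and Col4a4, the chains typical of kidney glomeruli, had mean signals of 1.70 and 2.18 and lay below the limit. All 4 tested type IV chains had differences above 0, where 49.0% of all genes did. Their median was 0.22, and the median over all 6 was 0.18.

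**Figure D2:**
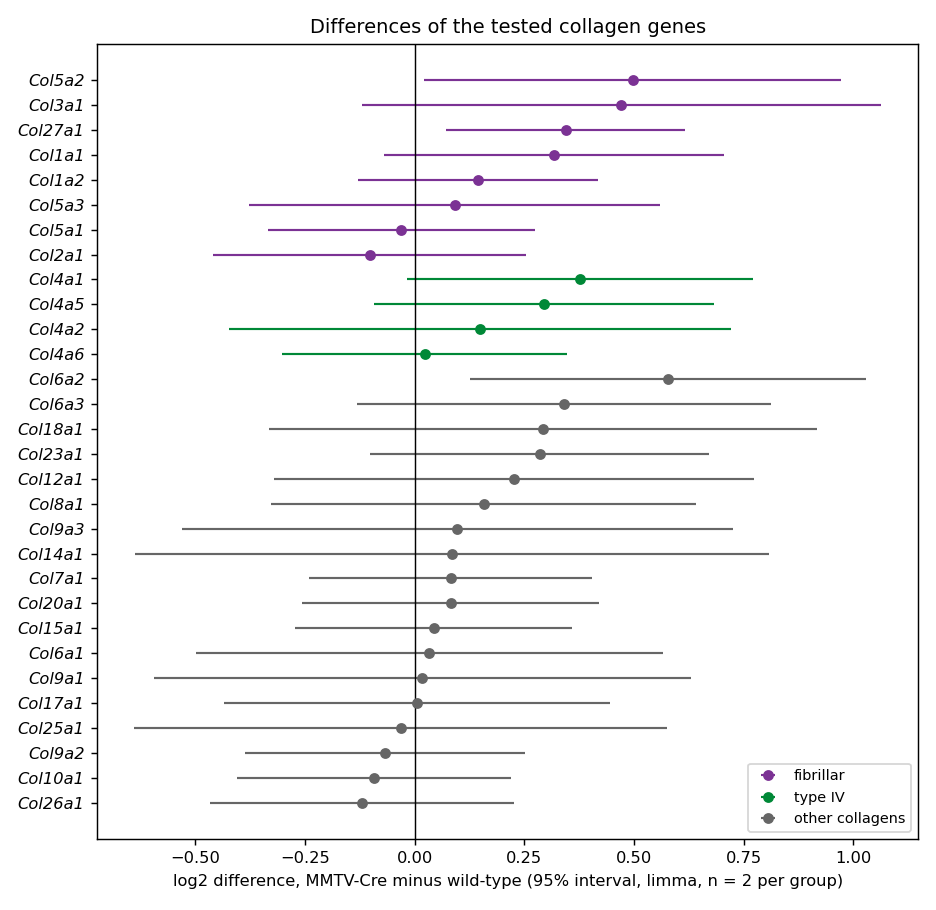
Log2 difference, MMTV-Cre minus wild-type, of the 30 tested collagen genes (points) with 95% limma intervals (bars, n = 2 per group), for fibrillar collagens in purple, type IV chains in green and others in grey. The intervals of Col5a2, Col27a1 and Col6a2 lie above 0 and those of the other 27 include 0, and none passed after adjustment. Col27a1 and Col23a1 were tested only through their MMTV-Cre values.

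Other collagens had 18 tested members, and 14 had differences above 0, where 49.0% of all genes did. Both MMTV-Cre arrays were higher in 3 of the 18, near the 16.7% of all genes. Of those 3, Col23a1 reached the limit through its MMTV-Cre values alone. The median difference of the group was 0.08, or 0.04 over all 27. Type VI collagen forms beaded filaments next to basement membranes and is assembled from the products of Col6a1, Col6a2 and a further chain, usually that of Col6a3. Col6a2 had the largest difference of the tested collagens. It stood at 4.87 and 5.16 in MMTV-Cre, against 4.27 and 4.61 in wild-type. The difference was 0.58 (0.13 to 1.03), 1.49-fold, with a limma unadjusted p of 0.0217 and an adjusted p of 0.964. It was 0.40 without wild-type replicate 1, 0.43 without MMTV-Cre replicate 2 and 0.72 without MMTV-Cre replicate 1. Col6a3 stood at 5.85 and 6.24 in MMTV-Cre, against 5.84 and 5.57 in wild-type. MMTV-Cre replicate 1 and wild-type replicate 1 differed there by less than the gap between the wild-type arrays, and the difference was 0.34 (−0.13 to 0.81). It was 0.14 without MMTV-Cre replicate 2, 0.20 without wild-type replicate 2 and 0.54 without MMTV-Cre replicate 1.

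Col6a1 depended on the probe set. The brighter one stood at 6.44 and 7.01 in MMTV-Cre, against 6.69 and 6.68 in wild-type, and differed by 0.03 (−0.50 to 0.56). The dimmer one stood at 4.83 and 5.28 in MMTV-Cre, against 4.43 and 4.80 in wild-type, and differed by 0.44. In the dimmer one both MMTV-Cre arrays were above both wild-type arrays, while in the brighter one the wild-type arrays lay between the MMTV-Cre arrays. The mean of both probe sets differed by 0.24. Col6a4, Col6a5 and Col6a6, which encode chains that can take the place of the Col6a3 product, had mean signals between 1.72 and 2.19 and lay below the limit.

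Collagens with interrupted helices coat the fibrils of other types. Col12a1, whose product binds type I fibrils, stood at 4.75 and 5.32 in MMTV-Cre, against 4.73 and 4.88 in wild-type. Col14a1, with a similar role, stood at 4.39 and 5.16 in MMTV-Cre, against 4.54 and 4.85 in wild-type. In both genes MMTV-Cre replicate 2 was the highest array and replicate 1 lay within or below the wild-type values, and the differences were 0.23 (−0.32 to 0.77) and 0.08 (−0.64 to 0.81). Without MMTV-Cre replicate 2 they were −0.06 and −0.30, and without wild-type replicate 1 they were 0.15 and −0.07. The cartilage genes Col9a1, Col9a2 and Col9a3 had differences between −0.07 and 0.10.

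Members of the basement membrane zone lay above the limit in all 4 cases, and MMTV-Cre replicate 2 was the highest array in each. Col17a1, a transmembrane collagen of hemidesmosomes, by which basal cells hold on to the basement membrane, stood at 4.14 and 4.56 in MMTV-Cre, against 4.39 and 4.31 in wild-type. The wild-type arrays lay between the MMTV-Cre arrays and the difference was 0.0049 (−0.43 to 0.44). Col7a1, the anchoring fibril collagen, differed by 0.08 (−0.24 to 0.40). Col15a1 and Col18a1, whose products link the membrane to the matrix below it, differed by 0.04 (−0.27 to 0.36) and 0.29 (−0.33 to 0.92).

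Some members went the other way between the replicates of MMTV-Cre. Col8a1, a short-chain collagen of vessel walls and other tissues, stood at 6.37 and 5.94 in MMTV-Cre, against 5.87 and 6.13 in wild-type, a difference of 0.16 (−0.33 to 0.64). Col23a1, a transmembrane collagen, stood at 3.18 and 2.84 in MMTV-Cre, against 2.75 and 2.70 in wild-type, a difference of 0.28 (−0.10 to 0.67). Both wild-type values lay below the limit for dim genes, and the difference was 0.11 without MMTV-Cre replicate 1 and 0.45 without MMTV-Cre replicate 2. Col25a1, a transmembrane collagen known from neurons, stood at 3.77 and 3.10 in MMTV-Cre, against 3.41 and 3.53 in wild-type. In these genes MMTV-Cre replicate 1 was the highest array, while in Col25a1 replicate 2 was the lowest.

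Col23a1, Col9a1 and Col27a1 lay just inside the limit for dim genes, with mean signals of 2.87, 2.94 and 2.95. Col9a1 stood at 2.61 and 3.28 in MMTV-Cre, against 2.85 and 3.01 in wild-type, so the wild-type arrays lay between the MMTV-Cre arrays. Just outside it were Col16a1 at 2.58, Col11a2 at 2.54 and Col11a1 at 2.51. Col16a1 stood at 2.68 and 2.71 in MMTV-Cre, against 2.47 and 2.45 in wild-type, and was not tested. Col11a2 stood at 2.47 and 2.50 in MMTV-Cre, against 2.69 and 2.53 in wild-type. Col11a1 stood at 2.54 and 2.56 in MMTV-Cre, against 2.34 and 2.58 in wild-type. The 14 dim members had mean signals from 1.60 to 2.58, and with them 31 of all 44 had differences above 0 and 13 below. Both MMTV-Cre arrays lay above both wild-type arrays in 12 of the 44 and below them in 4. Of the genes tested in the series, 16.7% and 16.5% did so. The 4 were the dim genes Col11a2, Col22a1, Col6a6 and Col28a1. The largest differences below 0 were −0.31 for Col28a1 and −0.22 for Col22a1, both untested.

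Several collagen genes are neighbours in the genome. In the RefSeq order of protein-coding genes (GRCm38.p6) 8 adjacent pairs were both members, and both genes were tested in 4 pairs. Col3a1 and Col5a2 on chromosome 1 differed by 0.47 and 0.50. Col6a2 and Col6a1 on chromosome 10 differed by 0.58 and 0.03, and the dimmer Col6a1 probe set by 0.44. Col4a1 and Col4a2 on chromosome 8 are divergent, and their annotated starts overlap by 22 bases. Their differences were 0.38 and 0.15. Col4a6 and Col4a5 on chromosome X are also divergent, with 1342 bases between the starts, and differed by 0.02 and 0.29. No test was made over pairs.

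Genes that make, bind or receive collagen did not pass the test either (0 of 55 tested genes in 6 lists). An unadjusted limma p was under 0.05 in 4 of the 55, where 4.32% of all genes had such a p. Differences were above 0 in 41, where 49.0% of all genes lay above 0. Both MMTV-Cre arrays lay above both wild-type arrays in 14 and below them in 7, where the shares of all genes were 16.7% and 16.5%. MMTV-Cre replicate 2 was the highest array in 9 of 15 genes for hydroxylation and folding and 9 of 12 that bind fibrils. It was so in 8 of 13 basement membrane partners, 3 of 5 cross-linking genes, 2 of 5 for trimming and 2 of 5 receptors. That array was the highest in 27.6% of all genes tested. Of 15 tested genes for hydroxylation and folding of chains, 10 had differences above 0. Ppib, a folding enzyme with the highest mean signal of the list at 7.79, differed by −0.19 (−0.47 to 0.09), the prolyl hydroxylase family gene P3h3 by 0.36 (0.02 to 0.69) and the folding gene Fkbp14 by 0.40 (−0.11 to 0.90). Of 5 genes for trimming of procollagen, 4 were above 0, among them the enhancer genes Pcolce and Pcolce2 with 0.18 and 0.41. The cross-linking enzyme gene Loxl1 stood at 4.16 and 4.49 in MMTV-Cre, against 3.75 and 3.84 in wild-type. Its groups were separate, with a difference of 0.53 (0.15 to 0.92), a limma unadjusted p of 0.0162 and an adjusted p of 0.964. Pxdn, which encodes the enzyme that cross-links type IV collagen, differed by −0.01, and Loxl4 by −0.12.

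Proteins that bind fibrils had 11 of 12 members with differences above 0. Prelp, which encodes a small leucine-rich proteoglycan, stood at 6.13 and 5.91 in MMTV-Cre, against 5.60 and 5.64 in wild-type. Aspn, of the same protein family, stood at 6.19 and 5.99 in MMTV-Cre, against 5.51 and 5.83 in wild-type. Both were higher in the 2 MMTV-Cre arrays, with differences of 0.40 (0.08 to 0.72) and 0.42 (0.02 to 0.82). Their highest signal was in MMTV-Cre replicate 1, while 9 of the 12 genes in the list were highest in MMTV-Cre replicate 2. The fibril proteoglycan gene Dcn, with the highest mean of the list, differed by 0.11 (−0.24 to 0.45). Of 13 partners in the basement membrane 10 were above 0, with Lamb2 at 0.31 (−0.08 to 0.70), Nid2 at −0.23 (−0.60 to 0.14) and Lamc1, the one with the highest mean, at 0.02. Among the 5 tested receptors, the epithelial collagen receptor gene Itga2 differed by −0.30 (−0.75 to 0.15), Ddr2, a collagen receptor of stromal cells, by 0.30 (−0.29 to 0.89) and Itgb1 by 0.12.

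Fibroblast markers outside the collagens also differed between the MMTV-Cre arrays. After each gene's mean over the 4 arrays was subtracted, the 11 tested markers averaged −0.22 and 0.27 in MMTV-Cre replicates 1 and 2, against −0.03 and −0.03 in wild-type. The fibrillar collagens averaged −0.03 and 0.24 in MMTV-Cre, against −0.12 and −0.10 in wild-type. The low fibroblast mean of MMTV-Cre replicate 1 rests on a few genes. That array was the lowest for 4 of the 11 markers and wild-type replicate 1 for 7, and the medians were −0.10 and 0.30 in MMTV-Cre, against −0.13 and 0.0060 in wild-type. Only Lsp1 was highest in wild-type replicate 1, the array with lymphocyte transcripts. It stood at 3.64 and 4.14 in MMTV-Cre, against 5.29 and 3.71 in wild-type, and the near equality of the wild-type means rests partly on it. Type IV chains averaged 0.02 and 0.19 in MMTV-Cre, against −0.11 and −0.11 in wild-type. With Lsp1 included, the mean signal of the fibroblast markers was 5.08 and 5.57 in MMTV-Cre, against 5.27 and 5.27 in wild-type. Pdgfra, a defining fibroblast gene chosen here after its values were seen, stood at 4.34 and 5.92 in MMTV-Cre, against 5.44 and 5.05 in wild-type. Fewer cells of a type and less RNA per cell cannot be told apart in these bulk samples, and the part of the fibroblast markers in the collagen differences was not tested.

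**Figure D3:**
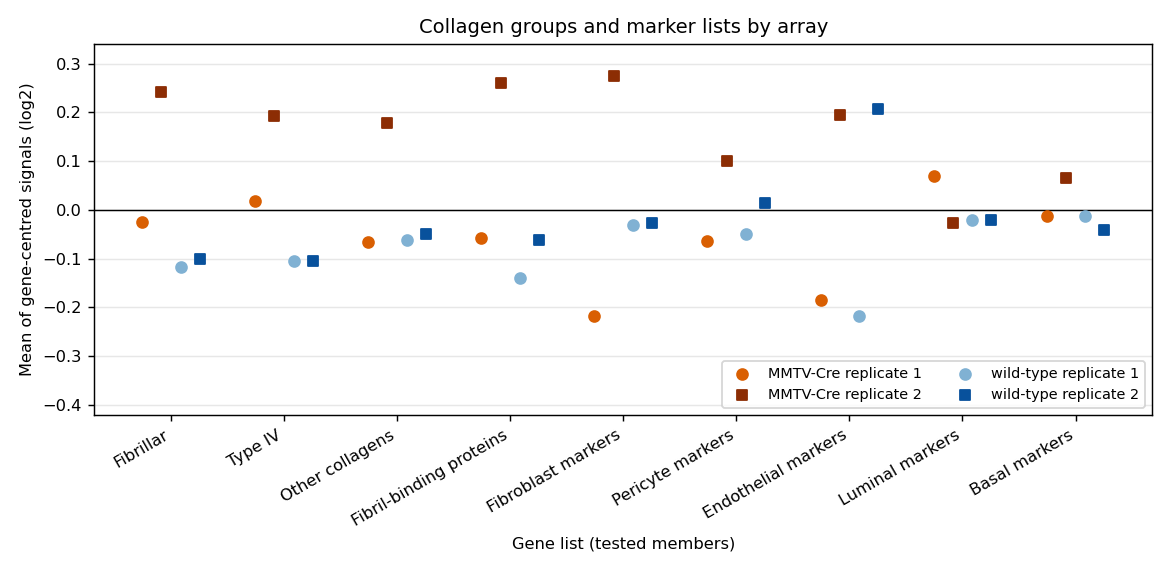
Mean of log2 signals, centred on the 4-array mean of each gene (vertical axis), of the tested members of collagen groups and other gene lists (horizontal axis), 1 point per array. MMTV-Cre replicate 2 has the highest mean for the 3 collagen groups, the fibril-binding proteins and the fibroblast, pericyte and basal markers. Only 3 of 7 pericyte and 1 of 7 basal markers were highest in that array, and 4 of 7 basal markers were highest in MMTV-Cre replicate 1. The mean of the fibroblast markers in MMTV-Cre replicate 1, −0.22, rests on a few genes, and 7 of the 11 were lowest in wild-type replicate 1.

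Markers of other cell types gave varied patterns. Endothelial markers averaged −0.18 and 0.19 in MMTV-Cre, against −0.22 and 0.21 in wild-type, so their level followed replicate 2 in both groups. Pericyte markers averaged −0.06 and 0.10 in MMTV-Cre, against −0.05 and 0.01 in wild-type. Only 3 of the 7 were highest in MMTV-Cre replicate 2, and their highest median, 0.09, was in wild-type replicate 2. Luminal markers averaged 0.07 and −0.03 in MMTV-Cre, against −0.02 and −0.02 in wild-type, and basal markers averaged −0.01 and 0.07 in MMTV-Cre, against −0.01 and −0.04 in wild-type. The basal mean joins opposite differences, and 4 of the 7 basal markers were highest in MMTV-Cre replicate 1 and 1 in replicate 2. The smooth muscle genes Acta2 and Cnn1 differed by 0.40 and 0.31 and were higher in both MMTV-Cre arrays. Their limma unadjusted p was 0.0289 and 0.0431, with an adjusted p of 0.964 for each. Myh11 and Mylk, also smooth muscle genes, differed by 0.19 and 0.21 with overlapping groups. Krt14, Krt17 and Trp63 differed by −0.33, −0.18 and −0.24 with overlapping groups. Macrophage markers averaged −0.33 and 0.22 in MMTV-Cre, against −0.03 and 0.14 in wild-type, and adipocyte markers −0.35 and 0.18 in MMTV-Cre, against 0.10 and 0.07 in wild-type. All 4 macrophage and all 5 adipocyte markers tested were lowest in MMTV-Cre replicate 1, and 3 and 2 of them were highest in MMTV-Cre replicate 2. The part of all these lists in the collagen values was not tested.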

How the data were processed

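RNA of 2 MMTV-Cre and 2 wild-type samples was hybridised to 1 array each. Per the submitters' processing notes the authors used oligo and RMA, and the deposited table holds log2 signals, 1 per probe set. In RMA, background correction and equalising of the arrays come before probes are summarised. The sources used here give no versions.

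Of 41345 probe sets 23521 carried 1 gene symbol, 1814 several and 16010 none. Each of 22180 genes was represented by its brightest probe set, and the 11668 with a mean no lower than 2.84 (the middle of all probe set means) were tested with limma 3.58.1 in R 4.3.3 (lmFit, eBayes, two-sided, Benjamini-Hochberg adjustment over all genes tested, threshold 0.05). All 44 collagen genes matched the RefSeq table of GRCm38.p6. The number of arrays limits the precision.

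Members and gene lists were chosen with earlier results of these data known. Per-array values were given for tested type IV chains, the 12 members with the highest mean, the 10 with the smallest p and the 3 on either side of the limit, and, in each other list, for up to 3 genes by highest mean and smallest p. Beyond that rule, Krt8, Epcam, Pdgfra, Lsp1, Ptprc, Cd3e, Ms4a1, Col25a1 and Col5a1 were given per-array values or ranges. Acta2, Cnn1, Myh11, Mylk, Krt14, Krt17 and Trp63 were given differences. All of these were chosen after their values were seen. Same-numbered samples deviated with a correlation of −0.04 across 11668 genes, and nothing in the labels pairs them. The alternatives were other filters, probe set means, quantile normalization, median centring, other variance models, a replicate block, an unadjusted threshold and leaving out each array.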

Additional observations from a re-analysis of the deposited data

How the results depend on the processing

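No gene passed an adjusted p of 0.05 with all 4 arrays under any filter, normalization or variance model tried, and none with the replicate block (0 of 11668 genes, 0 of 30 collagens). The block changed no call, and left each difference as it was. At an unadjusted p under 0.05 there were 504 genes and 3 collagens. Without 1 array each the count ran from 0 to 13 genes, the 13 without wild-type replicate 2, and from 0 to 0 collagens. Such a fit assumes that the lone array of a group varies like the other group. The median difference ran from 0.14 to 0.31 for fibrillar, from 0.10 to 0.30 for type IV and from −0.05 to 0.21 for other collagens, the lowest in each case without MMTV-Cre replicate 2. With no filter on dim genes the fibrillar median was 0.093, since 3 more genes entered. The direction held without any 1 array for 12 of the 30 tested collagens, among them Col1a1, Col1a2, Col3a1, Col5a2, Col27a1, Col4a1, Col4a5, Col6a2 and Col6a3. It turned in at least 1 fit for the other 18. Their differences ran from −0.16 to 0.46 for Col4a2, from −0.072 to 0.12 for Col4a6, from −0.099 to 0.038 for Col5a1, from −0.10 to 0.28 for Col5a3 and from −0.24 to 0.038 for Col2a1. They ran from −0.25 to 0.32 for Col6a1, from −0.054 to 0.37 for Col8a1, from −0.061 to 0.51 for Col12a1, from −0.30 to 0.47 for Col14a1 and from −0.21 to 0.22 for Col17a1. The next ran from −0.0086 to 0.59 for Col18a1, from −0.0053 to 0.17 for Col7a1, from −0.044 to 0.13 for Col15a1, from −0.15 to 0.016 for Col9a2 and from −0.36 to 0.30 for Col25a1. The last ran from −0.033 to 0.20 for Col20a1, from −0.17 to 0.36 for Col9a3 and from −0.32 to 0.35 for Col9a1. The difference of Col25a1 also turned under quantile normalization, to 0.0065, and no other collagen's did under an alternative with all 4 arrays.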
